A study of Mus musculus with 12 samples.

Results

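The p53 pathway and the apoptosis machinery were followed here through 36 genes, listed by symbol, in single whole mouse embryos. All 36 symbols were found among the 23284 rows of the count table, and all 36 passed the filter on low counts that 14412 rows passed. The members are Trp53 with its antagonists Mdm2 and Mdm4, 12 p53 target genes outside the core death machinery, and 21 genes of the death receptor and mitochondrial routes to caspase activation. RNA was measured by sequencing of polyadenylated RNA, with paired reads of 50 bases, at 9.0 days post coitum and about 9 to 10 somites. The 4 control embryos are labelled wild type. The other 8 are labelled null for Tgif1 and Tgif2, which encode related homeodomain repressors, and their titles carry the abbreviation CDKO; the series text calls them conditional double mutants that lack both alleles of each gene. Neither the Cre driver nor the deleted exons could be read from the labels or series text. Both groups share a mixed C57BL/6 x 129Sv background, and each library came from 1 embryo.

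The protein p53 is a transcription factor that is kept scarce by the ubiquitin ligase Mdm2 and held inactive by its relative Mdm4. Damage or stress frees it, mostly by changes to the protein and not to its mRNA, and it then switches on genes for cell cycle arrest, repair, feedback and death. Death by the mitochondrial route is decided among proteins of the Bcl2 family. BH3-only proteins neutralise the guardians Bcl2, Bcl-xL and Mcl1 or activate the pore formers Bax and Bak, and the pore releases cytochrome c, which builds the apoptosome with Apaf1 and caspase 9. Early embryos, and their neural tube and neural crest most of all, are known to be sensitive to excess p53.

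Library totals ranged from 16802367 to 21346245 counts. Levels are given as CPM, which puts each gene's counts relative to the scaled library total. Tgif1 stood at 64.2, 61.3, 59.4 and 58.5 CPM in the wild-type embryos and between 5.5 and 6.87 CPM (median 6.03) in the others, so it was low in every embryo with the mutant label. Tgif2 was not lower in that group (87.3 ± 1.17 CPM, SD, n = 4, against 97.9 ± 11.8 CPM, SD, n = 8). For Tgif2 the genotype is known here from the label alone, and these embryos are called mutant-labelled. Markers of neural tube, heart, somite, gut endoderm, endothelium, neural crest, red cells and yolk sac endoderm were all present, as a whole embryo should hold. All 4 heart markers and 3 of 4 endothelial markers were higher in the mutant-labelled group. Of 4 neural tube markers 1 was lower, and of 4 somite markers 1 was lower, with none of either tissue higher. Summed somite marker levels ran from 60.77 to 139.1 CPM in wild type and from 56.55 to 100.4 CPM in mutant-labelled embryos. Summed heart marker levels ran from 553 to 666 CPM in wild type and from 848 to 1505 CPM in mutant-labelled embryos. The sum of 5 trophoblast and decidua markers lay at or under 1.18 CPM in every embryo but mutant-labelled embryo 6, where it was 44 CPM. Red cell markers summed to only 36.3 CPM in mutant-labelled embryo 2, while the rest of that group had sums of 236.7 to 1668 CPM. The part of the heart, endothelial, neural tube, somite and trophoblast differences in the results below was not tested. With the red cell marker level in the model 13 members were higher and 6 lower, and with the yolk sac marker level 14 and 7, beside 12 and 7 without. Among all genes, fewer were called in each direction with the red cell level, and more with the yolk sac level, than without. Of all genes called, 52% were higher with the red cell level and 51.6% with the yolk sac level, beside 51.7% without. The member counts are therefore not read as a result about the members alone. In whole embryos fewer cells of a type and less RNA per cell cannot be told apart.

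Of the 36 genes, 12 were higher and 7 lower in the mutant-labelled embryos at an adjusted p below 0.05 (edgeR quasi-likelihood test, Benjamini-Hochberg over 14412 genes), and 17 did not pass. Across all genes tested 51.5% passed, 26.6% higher and 24.9% lower, so a count of 19 of 36 is close to the background. In 12 members no value overlapped between the groups, beside 34.7% of all genes. The median log2 fold change was 0.04 for the members and 0.01 for all genes, and the median size was 0.24 against 0.25. Rises were found in both death receptors, in 3 BH3-only genes, in 6 p53 targets and in Bak1. Falls were found in Trp53 itself, in Aen, in Casp8 and Bid, in the BH3-only gene Pmaip1, in Casp9 and in Xiap. No guardian of the Bcl2 type passed. At 1.5-fold or more, 8 members rose and 2 fell, beside 11.9% of all genes that rose and 4.65% that fell by that much. Against a threshold of 1.2-fold, 10 members were higher (14.4% of all genes) and 2 lower (7.94%); the calls of Trp53, Aen, Phlda3, Casp8, Bak1, Casp9 and Xiap were lost. When each embryo's dependence on GC content and length was taken out, 11 members were higher (22.6% of all genes) and 13 lower (31.0%), with 53.6% of all genes called.

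**Figure D1:**
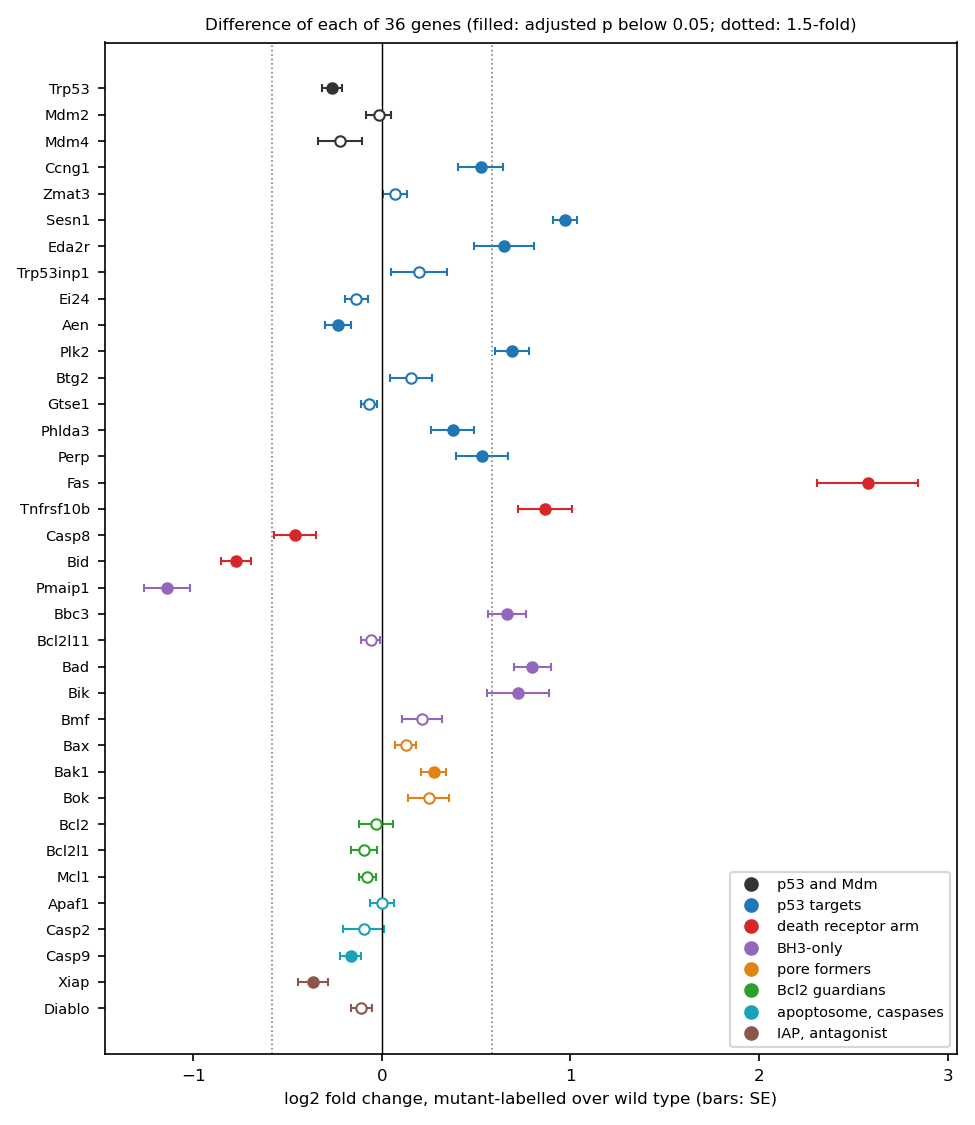
Log2 fold change of each of the 36 genes, mutant-labelled over wild type, with its standard error, ordered and coloured by role. Filled points passed an adjusted p of 0.05 and dotted lines mark 1.5-fold; Fas stands far to the right at 2.58 and Pmaip1 farthest to the left at -1.14.

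Trp53, the gene of p53, was lower in every mutant-labelled embryo. Its level was 268, 279.5, 254 and 271 CPM in wild type and 194 to 245 CPM (median 223) in the mutant-labelled embryos. The groups did not overlap, and the log2 fold change was -0.26 (SE 0.05, adjusted p = 0.000807 by edgeR), a drop to 0.833 of the wild-type level. The fall did not pass a test against a 1.2-fold difference (adjusted p = 0.538). A near-identical pseudogene, Trp53-ps, could share reads with it, which makes its level uncertain.

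Neither antagonist of p53 passed the test. Mdm2, which encodes the ligase that degrades p53 and is itself switched on by p53, stood at 63.4, 63.7, 64.4 and 58.1 CPM in wild type and at 54.4 to 70.9 CPM (median 60) in the mutant-labelled embryos. Its log2 fold change was -0.02 (SE 0.07, adjusted p = 0.841 by edgeR), with the wild-type values inside the mutant-labelled range. Mdm4 stood at 45.8, 43.7, 43.6 and 43 CPM in wild type and at 27.4 to 44.9 CPM (median 37.7) in the mutant-labelled embryos. Of these 8, 6 lay below every wild-type embryo, but their spread was wide (log2 fold change -0.22, SE 0.12, adjusted p = 0.12 by edgeR). The lowest Mdm4 values, 27.4 and 29.5 CPM, came from mutant-labelled embryos 6 and 2.

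Among 12 p53 targets of feedback, arrest and stress, 6 rose, 1 fell and 5 did not pass, a called share of 58.3% that is near the 51.5% of all genes. The largest rise was that of Sesn1, which encodes sestrin 1, a stress-induced protein that restrains mTORC1. Sesn1 was at 19.1, 20.5, 20.1 and 19.3 CPM in wild type and at 33.2 to 41.6 CPM (median 39.3) in the mutant-labelled embryos. Every mutant-labelled value lay above every wild-type value by more than the spread of either group (log2 fold change 0.97, SE 0.06, adjusted p = 1.92e-08 by edgeR). Sesn1 was the called member with the smallest standard error among the rises.

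Plk2, a polo-like kinase gene, followed with 33.2, 41.9, 45.4 and 42.9 CPM in wild type and 57 to 75.9 CPM (median 66.6) in the mutant-labelled embryos, again with no overlap (0.69, SE 0.09, adjusted p = 1.43e-05 by edgeR). Eda2r, the gene of a receptor of the TNF receptor family on the X chromosome, was at 6.2, 7.24, 6.68 and 5.68 CPM against 7.19 to 13.4 CPM (median 9.99). Only mutant-labelled embryo 2, at 7.19 CPM, reached into the wild-type range (0.65, SE 0.16, adjusted p = 0.00335 by edgeR), and the call held with Xist as a covariate for sex. Ccng1, the cyclin G1 gene and one of the best-known p53 targets, rose by 0.52 on the log2 scale (SE 0.12) without overlap, from 61.7 ± 5.45 CPM (SD, n = 4) to 88.7 ± 15.9 CPM (SD, n = 8). Perp, which encodes a desmosomal membrane protein, rose by 0.53 (SE 0.14). Phlda3, which encodes an inhibitor of Akt, rose by 0.37 (SE 0.11), and that call was lost with GC and length trends removed (0.16, adjusted p = 0.195).

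Aen, an apoptosis-enhancing nuclease gene, was the target that fell, from a mean of 77 ± 4.65 CPM (SD, n = 4) to 65.5 ± 5.93 CPM (SD, n = 8; -0.23 on the log2 scale, SE 0.07, adjusted p = 0.0102 by edgeR). The targets that did not pass were the RNA-binding protein gene Zmat3 (0.07), the stress protein gene Trp53inp1 (0.20), Ei24 (-0.14), the antiproliferative gene Btg2 (0.16) and Gtse1 (-0.07), a gene of G2 and mitosis. Their standard errors were between 0.04 and 0.15. Trp53inp1 passed as a rise with red cell markers in the model (0.37, adjusted p = 0.0125 by edgeR) and with GC and length trends removed (0.30, adjusted p = 0.0489). Gtse1 passed as a fall with those trends removed (-0.19, adjusted p = 0.000558 by edgeR). Ei24 passed as a fall with those trends removed (-0.21), with sample quality weights (-0.17) and without mutant-labelled embryo 7 (-0.17) or 8 (-0.16). The mutant-labelled range of Trp53inp1, 10.1 to 22 CPM, enclosed the wild-type range of 12.5 to 15.3 CPM.

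Promoter sequence was read to show which members carry the letters that p53 is known to bind. RefSeq starts (GRCm38.p6) were at hand for 30 members. Zmat3, Trp53inp1, Perp, Tnfrsf10b, Pmaip1 and Bik had no such start at hand and were not searched. The consensus p53 half-site, 10 bases long and its own reverse complement, was sought in the 250 bases before each start. It was found in 8 of 44 member promoters (18.2%), beside 7.13% of 32851 promoters in the table, and in 8 of 30 member genes beside 8.2% of all genes. The windows below show that half-site in capitals, 5′ to 3′ on the gene's strand, with up to 25 bases on each side. They are Ccng1 at chr11:40755437-40755496 (minus strand), Sesn1 at chr10:41887241-41887300 (plus), Trp53 at chr11:69580259-69580318 (plus), Mdm2 at chr10:117710910-117710969 (minus), Bax at chr7:45467065-45467124 (minus) and Bmf at chr2:118544766-118544825 (minus), each upstream of a listed start and outside annotated exons. For Aen at chr7:78895937-78895946 (plus) and Ei24 at chr9:36797335-36797344 (minus) only the half-site is shown, because the window meets an annotated exon. In both genes the half-site itself also meets an annotated exon.
Ccng1: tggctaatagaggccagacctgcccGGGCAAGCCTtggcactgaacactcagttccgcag
Sesn1: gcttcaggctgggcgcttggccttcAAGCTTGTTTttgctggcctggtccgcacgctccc
Trp53: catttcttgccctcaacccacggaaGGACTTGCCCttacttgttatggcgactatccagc
Mdm2: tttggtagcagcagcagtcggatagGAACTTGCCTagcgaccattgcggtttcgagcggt
Bax: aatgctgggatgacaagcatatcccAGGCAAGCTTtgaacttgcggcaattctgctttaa
Bmf: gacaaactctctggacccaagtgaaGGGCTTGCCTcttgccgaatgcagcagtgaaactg
Aen: GGGCTTGTCC
Ei24: GGGCATGCCC
Of these 8 genes, Ccng1 and Sesn1 rose, Trp53 and Aen fell, and Mdm2, Bax, Bmf and Ei24 did not pass. The letters alone are a description and not a measured binding site. For comparison, CCAAT on either strand was in 20 of 44 member promoters (33.9% of all) and the E-box CACGTG in 4 (6.02% of all); CACGTG lies in windows of Bax, Aen, Bbc3 and Fas.

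In the death receptor arm both receptors rose and both intracellular relays fell. This is 4 genes called of 4, in a table where 51.5% of all genes were called. Fas, which encodes the receptor of Fas ligand, was at 0.29, 0.203, 0.461 and 0.449 CPM in wild type, only 4 to 9 counts per library. In the mutant-labelled embryos it was at 1.48 to 2.7 CPM (median 2.01), or 30 to 55 counts. Every mutant-labelled embryo was above every wild-type embryo, by 2.58 on the log2 scale (SE 0.27, adjusted p = 1.83e-06 by edgeR), the widest difference among the 36 genes. Even so Fas remained the lowest of the members per kilobase of transcript in both groups.

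Tnfrsf10b, the mouse gene of the TRAIL death receptor, was at 10.8, 10.8, 9.67 and 10.6 CPM in wild type and at 14.5 to 25.5 CPM (median 19.2) in the mutant-labelled embryos (0.86, SE 0.14, adjusted p = 0.000164 by edgeR). No values overlapped, and the mutant-labelled embryos spread widely, with embryos 4, 5 and 6 at 14.5 to 15.3 CPM and embryo 1 at 25.5 CPM. Its reads may be shared with a near-identical gene model, Gm15574.

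Casp8 encodes the initiator caspase that death receptors recruit. It fell from 15 ± 0.775 CPM (SD, n = 4) to 10.9 ± 1.73 CPM (SD, n = 8), by 0.46 on the log2 scale (SE 0.11), with mutant-labelled embryo 6 at 14.7 CPM inside the wild-type range. Its fall did not pass against a 1.2-fold threshold (adjusted p = 0.056 by edgeR). Bid, the BH3-only gene whose protein caspase 8 cleaves to carry the signal to mitochondria, was at 21, 24, 21.2 and 20.9 CPM in wild type and at 10.7 to 14.3 CPM (median 13) in the mutant-labelled embryos. The groups were far apart (log2 fold change -0.77, SE 0.08, adjusted p = 2.02e-06 by edgeR). Bid shares 628 exon bases with Bcl2l13 on the opposite strand in the reference annotation, and Bcl2l13 went from 159.6 to 173 CPM.

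**Figure D2:**
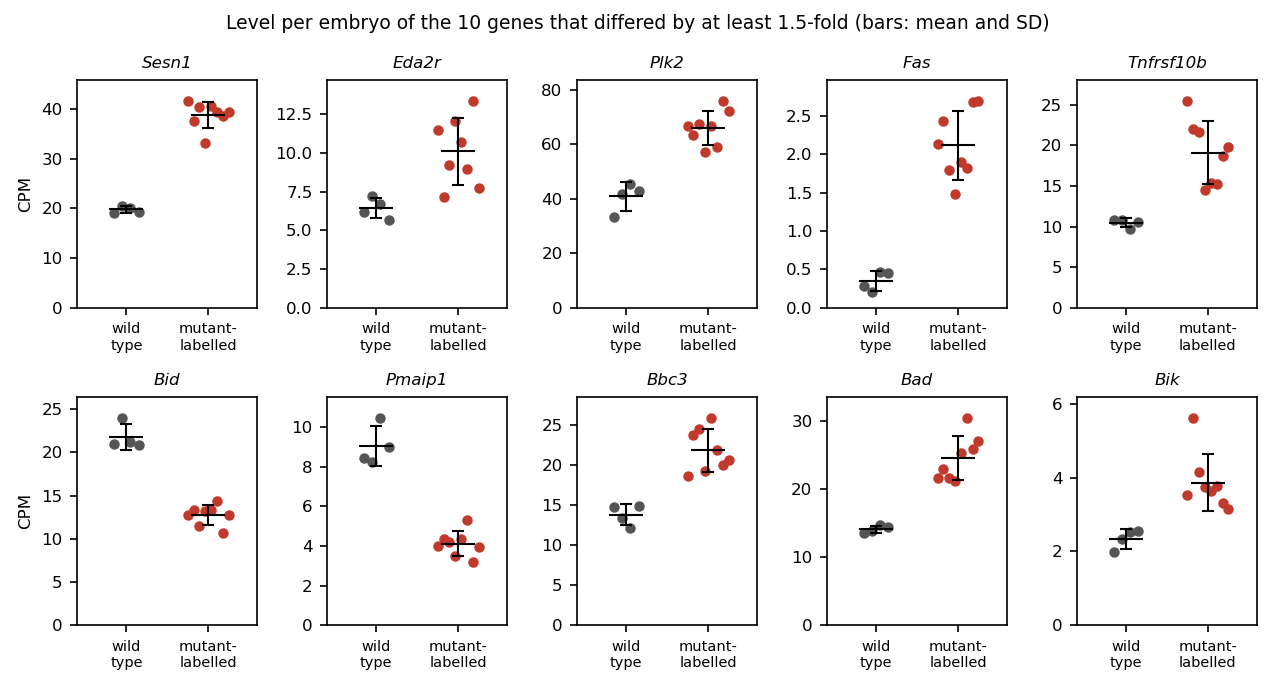
CPM per embryo of the 10 members that passed the test with at least 1.5-fold difference, 4 wild-type embryos in grey and 8 mutant-labelled embryos in red, with mean and SD. Bid and Pmaip1 are lower and the other 8 higher; only Eda2r has values that overlap between the groups.

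BH3-only genes moved in opposite directions. Pmaip1, which encodes Noxa, a p53-induced protein that antagonises Mcl1, was at 8.46, 8.25, 10.5 and 9.02 CPM in wild type and at 3.2 to 5.29 CPM (median 4.11) in the mutant-labelled embryos. It was lower in 8 of 8, with a difference of -1.14 (log2, SE 0.12, adjusted p = 2.75e-06 by edgeR), the largest fall of the members. Bbc3 encodes Puma, the other classical p53-induced BH3-only protein. It went the other way, from 14.8, 13.4, 12.2 and 14.9 CPM to 18.6 to 25.9 CPM (median 21.3), with no overlap (0.66, SE 0.10, adjusted p = 6.94e-05 by edgeR).

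Bad, whose protein is kept inactive by survival kinases, was at 13.5, 13.8, 14.7 and 14.4 CPM in wild type and at 21.2 to 30.5 CPM (median 24.1) in the mutant-labelled embryos (0.80, SE 0.10, adjusted p = 1.01e-05 by edgeR). The wild-type values lay close together and far below the lowest mutant-labelled embryo. Bad shares 524 exon bases with Gpr137 on the opposite strand, and Gpr137 was higher too (log2 fold change 0.42, SE 0.09), so reads of the pair cannot be told apart where strand is not stated. Bik, a scarce BH3-only gene, was at 1.97, 2.33, 2.53 and 2.54 CPM against 3.14 to 5.62 CPM (median 3.7), with mutant-labelled embryo 2 the highest (0.72, SE 0.17, adjusted p = 0.00196 by edgeR). The 2 most abundant BH3-only genes by CPM did not pass. Bmf differed by 0.22 (SE 0.11) and Bcl2l11, the gene of Bim, by -0.06 (SE 0.05). Bmf passed as a rise with sample quality weights (0.30, adjusted p = 0.00845 by limma-voom) and with yolk sac markers in the model (0.27, adjusted p = 0.0062 by edgeR). It also passed without wild-type embryo 1 (0.29, adjusted p = 0.0497) or mutant-labelled embryo 1 (0.26, adjusted p = 0.0368).

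Among the pore formers and guardians only Bak1 passed the test, and none differed by 1.5-fold or more. Bax was at 123, 121, 120.1 and 127 CPM in wild type and at 123 to 150 CPM (median 132) in the mutant-labelled embryos. All 8 were above the wild-type mean and 5 above every wild-type embryo, yet the difference of 0.13 (SE 0.06) did not pass (adjusted p = 0.0776 by edgeR). It passed as a rise with sample quality weights in limma-voom (0.12, adjusted p = 0.0215) and without mutant-labelled embryo 1 (0.14, adjusted p = 0.0453). With GC and length trends removed it was -0.09 (adjusted p = 0.0245 by edgeR), so its direction depends on whether those trends are removed. Bak1 rose from 75.3 ± 5.57 to 91.1 ± 7.19 CPM (0.27, SE 0.07), and that call was lost with the same trends removed (0.10, adjusted p = 0.177). Bok, a related gene, had a difference of 0.25 (SE 0.11) that did not pass. Bok passed as a rise with sample quality weights (0.30), with yolk sac markers in the model (0.28) and without wild-type embryo 4 (0.31) or mutant-labelled embryo 1 (0.29) or 7 (0.27).

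Bcl2, the founding guardian, was at 29, 26, 27.3 and 22.8 CPM in wild type and at 21.4 to 29.5 CPM (median 25.9) in the mutant-labelled embryos, ranges that nearly coincide (-0.03, SE 0.09, adjusted p = 0.808 by edgeR). Bcl2l1, the gene of Bcl-xL, had a log2 fold change of -0.09 (SE 0.07) and Mcl1 one of -0.08 (SE 0.05). Both passed as falls with sample quality weights (adjusted p = 0.0455 and 0.0436 by limma-voom) and with GC and length trends removed (adjusted p = 0.000601 and 0.0165 by edgeR).

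Downstream of the mitochondria the changes were small. Apaf1, the scaffold of the apoptosome, was at 64.8, 62.8, 66.5 and 63.5 CPM in wild type and at 56.4 to 71.1 CPM (median 66.7) in the mutant-labelled embryos, with a difference of 0.00 (SE 0.06, adjusted p = 0.991 by edgeR). Casp9, the caspase that Apaf1 activates, was at 30.3, 34, 34 and 32 CPM against 27.7 to 31.3 CPM (median 28.7). All 8 lay below the wild-type mean, and it fell by 0.16 (SE 0.06, adjusted p = 0.0211 by edgeR). Casp9 did not pass when wild-type embryo 2 (adjusted p = 0.0777) or 3 (adjusted p = 0.0684) was left out, nor with red cell marker level in the model (adjusted p = 0.0553). Casp2, an initiator caspase gene of the Pidd pathway, did not pass (-0.10, SE 0.11).

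Xiap, an X-linked inhibitor of caspases 3, 7 and 9, fell from 103 ± 2.31 CPM (SD, n = 4) to 80 ± 10.1 CPM (SD, n = 8), by 0.36 on the log2 scale (SE 0.08), in 8 of 8 embryos and also with Xist as a covariate. Its mutant-labelled values ran from 66.6 CPM in embryo 2 to 98.8 CPM in embryo 7, the latter just under the lowest wild-type value of 101 CPM. Diablo, whose protein Smac relieves caspases of that inhibition, did not pass (-0.11, SE 0.06) and has 1 near-identical copy. It also shares 1326 exon bases with B3gnt4 on the opposite strand and 1193 with Gm49027 on the same strand. With GC and length trends removed it passed as a fall (-0.20, adjusted p = 0.00734 by edgeR).

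No single mutant-labelled embryo held the highest or the lowest value of every member. How far the members varied together across embryos was not tested. The coefficient of variation was larger in the mutant-labelled group for 29 of 36 members (80.6%), beside 77.2% of all genes. Its median was 11.6% against 6.15% in wild type for the members, and 10.9% against 7.08% for all genes. Mutant-labelled embryo 7 held the highest value of its group in 6 of 12 p53 targets, namely Ccng1, Eda2r, Trp53inp1, Ei24, Plk2 and Btg2, and also the lowest Trp53, at 194 CPM. It held the highest value of its group in 11 of all 36 members and the lowest in 7. Its library had the lowest total, 16802367 counts. Mutant-labelled embryo 6, with the trophoblast and decidua signal, held the highest Aen, Phlda3 and Perp and the highest value in 12 of all 36 members. Embryo 2, low in red cell markers, was lowest of its group in Eda2r, Trp53inp1, Btg2 and Perp and highest in Bik. Without embryo 2, 6 or 7 the counts of members higher and lower were 12 and 7, 12 and 7, and 13 and 8. Of all genes called in those fits, 51.5%, 51.8% and 50.7% were higher, beside 51.7% with every embryo kept.

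Mean log2 CPM over the genes of a role group summarised each embryo, as a description with no test. The 12 p53 targets scored 4.83 to 4.96 in wild type and 5.04 to 5.38 in the mutant-labelled embryos, with embryo 7 the highest. The death receptor arm scored 2.58 to 2.72 against 2.89 to 3.27, a shift carried by its 2 receptors. The 6 genes of the BH3-only group scored 3.94 to 4.02 against 4.03 to 4.31, a narrow gap. Bid, a BH3-only gene that fell, was counted in the death receptor arm and is not in that score. Xiap and Diablo together scored 6.39 to 6.47 against 6.09 to 6.28, where only Xiap passed the test as a single gene. The p53 and Mdm score was lower throughout, at 6.2 to 6.43 against 6.46 to 6.53, and of its genes only Trp53 passed. Scores of the pore formers (5.85 to 6.06 against 6 to 6.34), the guardians (6.26 to 6.39 against 6.19 to 6.33) and the apoptosome group (5.59 to 5.69 against 5.38 to 5.7) overlapped.

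**Figure D3:**
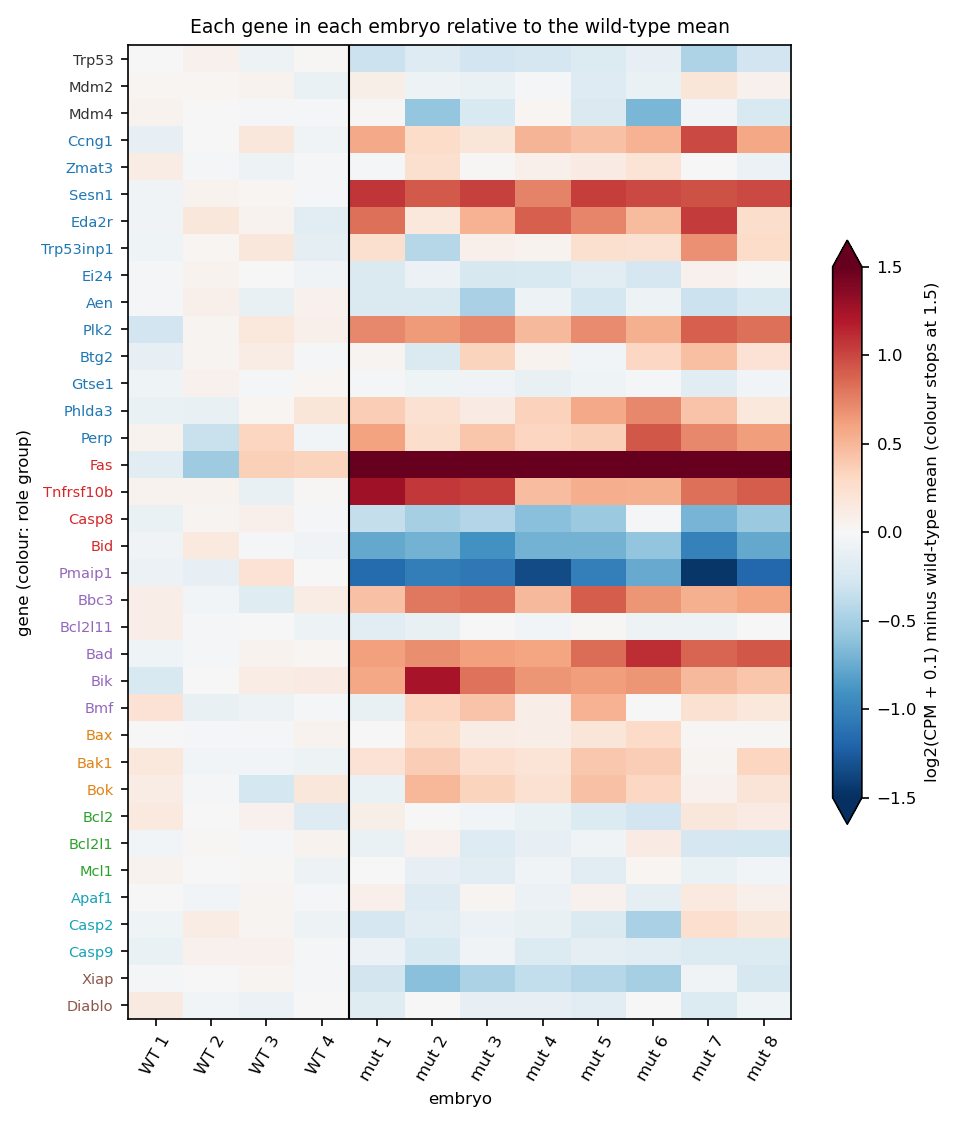
Log2 of CPM plus 0.1 minus the wild-type mean for each member (rows, labels coloured by role) in each of 12 embryos (columns), red above and blue below, with colour limits at 1.5. Fas, Sesn1, Plk2 and Tnfrsf10b are red and Pmaip1 and Bid blue in all 8 mutant-labelled columns, while Mdm2, Bcl2 and Apaf1 stay pale.

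Levels between genes were compared as CPM per kilobase of the longest transcript. Bax led in both groups, at 112 ± 2.78 in wild type and 122 ± 9.53 in the mutant-labelled embryos. Trp53 was second in wild type (81.9 ± 3.18) and ranked 3 in the mutant-labelled group (68.2 ± 4.67), where it was within its SD of Mcl1 (69.8 ± 3.57). At the low end stood Fas, Eda2r, Bik, Trp53inp1 and Tnfrsf10b in wild type, between 0.216 and 3.3. Sesn1 moved from place 29 to place 21 in this order and Plk2 from 16 to 9, while Bid moved from 21 to 29.

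**Figure D4:**
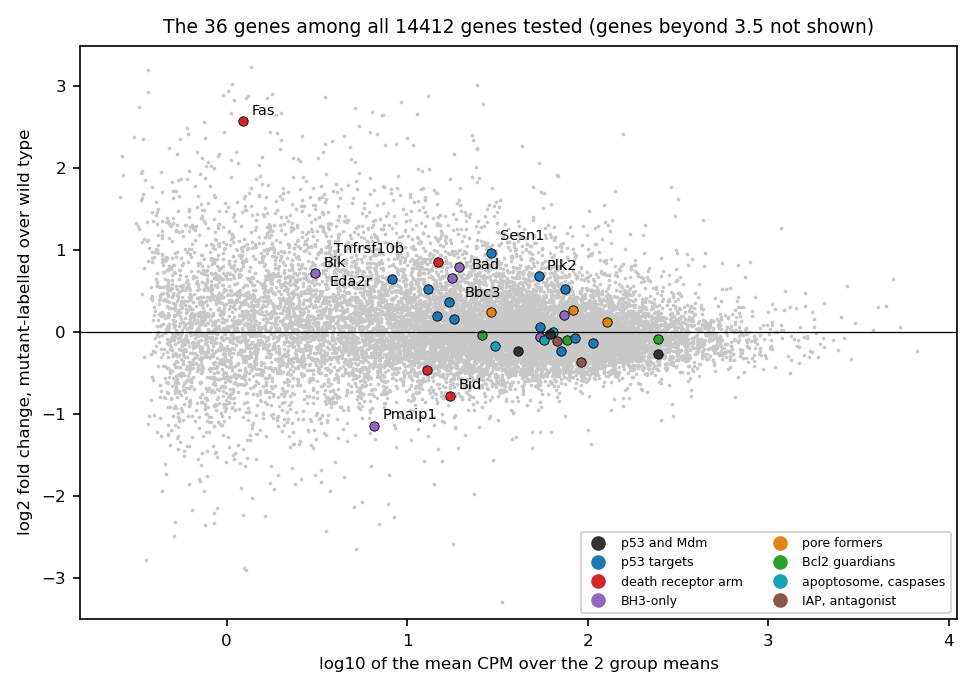
Log2 fold change against the mean level (log10 axis) of all tested genes in grey, with the 36 members coloured by role and those with at least 1.5-fold difference named. The members lie within the cloud of all genes, with Fas near its upper edge.

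Other genes of the pathway were taken from 4 lists of 101 genes, of which 88 were tested. Among 29 further p53 targets with enough counts, 9 rose, 8 fell and the other 12 did not pass, a called share of 58.6% beside 51.5% of all genes, with a list median of -0.02. The 4 with the lowest p were Ercc5, a nucleotide excision repair gene (0.44, SE 0.05), Abhd4 (0.42, SE 0.06), Pml, which organises nuclear bodies (-0.38, SE 0.06), and Sesn2. Sesn2, the relative of Sesn1, went from 29 ± 2.35 to 57.1 ± 12.5 CPM (0.98, SE 0.16), in 8 of 8 embryos. Cdkn1a, the gene of the arrest protein p21, was picked out after its values were seen. It was at 11.8, 14.5, 14.7 and 13.8 CPM in wild type and at 16.1 to 22.2 CPM (median 18.6) in the mutant-labelled embryos, above wild type in all 8 (0.47, SE 0.10, adjusted p = 0.00103 by edgeR). Ddit4, an mTORC1 inhibitor gene that also answers to hypoxia, was picked in the same way and went from 65.8 ± 17.6 to 218 ± 82.1 CPM (1.73, SE 0.34). Falls picked in the same way were those of Steap3, a ferrireductase gene, from 5.63 ± 0.417 to 2.99 ± 0.727 CPM (-0.91, SE 0.17), of Lrdd, the gene of the caspase 2 scaffold Pidd (-0.36, SE 0.07), and of the repair gene Xpc (-0.32, SE 0.06), each in 8 of 8 embryos. Ptprv, a phosphatase gene under 1 CPM in both group means, fell by 1.25 (SE 0.42) with overlapping groups. Against a 1.2-fold threshold 6 of this list were higher and 2 lower.

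A list of regulators and partners of p53 held both genes that activate or assist it and genes that degrade or restrain it. Of 23 tested, 13 fell and 3 rose, with a list median of -0.21, beside 24.9% of all genes lower and 26.6% higher. Against a 1.2-fold threshold 4 were lower and 3 higher. Prkdc, the gene of the DNA-dependent protein kinase, fell from 49 ± 1.92 to 27.5 ± 3.56 CPM (-0.83, SE 0.09). Atm, the kinase gene of the double-strand break response, fell by 0.52 (SE 0.09) and Sirt1, a deacetylase gene, by 0.47 (SE 0.07). Rchy1, which encodes another ligase for p53, rose by 0.42 (SE 0.07). The others that rose were Ppp1r13b (0.68, SE 0.12) and Ppp1r13l (0.61, SE 0.15), named after their values were seen, which encode relatives that assist or inhibit p53.

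Further members of the Bcl2 family and its partners were split, with 4 higher, 4 lower and 4 not passing of 12 tested (66.7% called, beside 51.5% of all genes). Against a 1.2-fold threshold (edgeR) 2 were higher, and none of the 4 falls was called. Bcl2l12 rose from 9.91 ± 1.18 to 22.4 ± 2.66 CPM (1.17, SE 0.11), but 572 of its exon bases are shared with an antisense gene. Bnip3, a hypoxia-responsive mitophagy gene, rose by 0.74 (SE 0.16) and has 4 near-identical copies. Bnip1 rose by 0.33 (SE 0.07), and Bclaf1 fell by 0.33 (SE 0.06). The other called genes of this list, named after their values were seen, were Bcl2l13 (0.12), Bnip2 (-0.18), Bag1 (-0.15) and the scarce Bcl2l14 (-0.79).

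The last list, of caspase, receptor and inhibitor genes, had 24 with enough counts, of which 7 rose and 6 fell (54.2% called, near the 51.5% of all genes). Against a 1.2-fold threshold 6 were higher and 1 lower. Dffa, which encodes the inhibitor and chaperone of the apoptotic DNase, rose from 41 ± 2.51 to 91.3 ± 5.31 CPM in 8 of 8 embryos (1.15, SE 0.06, adjusted p = 8.57e-10 by edgeR), and has 1 near-identical match. Birc5, the gene of survivin, which also serves in mitosis, rose by 0.56 (SE 0.05), and the executioner caspase gene Casp6 by 0.46 (SE 0.07). Tnfrsf21, the gene of death receptor 6, fell by 0.50 (SE 0.05).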

How the data were processed

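The authors' deposited table holds raw counts per gene symbol, 1 column per embryo, 12 in all, with 23284 rows. The tools named in the submitters' processing notes are STAR, featureCounts, FastQC and DESeq2, and the build is mm9. Neither versions nor annotation nor strand setting could be read from the labels, so counts of genes with overlapping neighbours or near-identical copies are uncertain. Samples were grouped by genotype label. Replicate numbers follow accession order. The series text speaks of individual embryos, with no litter given. No pair of libraries was within sampling noise (lowest chi-square per degree of freedom 3.89).

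Counts were tested in R 4.3.3 with edgeR 4.0.16 (TMM, filterByExpr, robust quasi-likelihood F test, no covariate), Benjamini-Hochberg over 14412 genes, threshold 0.05. The SE is the log2 fold change divided by the square root of F. Scores use log2 CPM with a prior count of 2. On simulated counts of these 14412 genes the test recovered 47 of 62 genes changed by 1.5-fold, 62 of 70 by 2-fold and 63 of 68 by 4-fold, and 7 of 179 calls were false. The simulation changed far fewer genes than the 51.5% called in the data and gave both groups the same spread. Its rates therefore need not hold for this comparison. Copies are transcripts of other genes with at least 200 bases at 95% identity (BLAST 2.17.0, GENCODE M21, GRCm38), and exon overlaps of at least 50 bases are from the same annotation. Such overlaps were found for 8 members: Ei24, Bid, Bad, Bax, Bak1, Bcl2, Casp9 and Diablo. Members and lists were chosen with earlier results of these data known. Members past 0.05 with at least 1.5-fold difference, and Trp53, Mdm2, Mdm4, Bax, Bcl2, Casp9 and Apaf1, are given in full, and 4 genes of lowest p from each other list. Alternatives used DESeq2 1.42.0 and limma 3.58.1 besides edgeR settings.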

Additional observations from a re-analysis of the deposited data

Results flagged for a closer look

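In 8 of 124 groups of embryos (6.45%), taken over members, other named genes and role scores, 1 embryo lay far from the rest of its group by Dixon's 95% limit, which chance passes in about 1 of 20 groups. The groups share embryos and are not independent. Among mutant-labelled embryos, Ccng1 was 123 CPM in embryo 7 (others 69.9 to 91.9), Casp8 was 14.7 CPM in embryo 6 (others 9.2 to 11.7) and Bik was 5.62 CPM in embryo 2 (others 3.14 to 4.16). In wild type, Mdm2 was 58.1 CPM in embryo 4 (others 63.4 to 64.4) and Bid was 24 CPM in embryo 2 (others 20.9 to 21.2). Bak1 was 83.6 CPM in wild-type embryo 1 (others 71.5 to 73.4), Sirt1 was 76.1 CPM there (others 67.8 to 68.3), and the score of Xiap and Diablo was 6.47 (others 6.39).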

How the results depend on the processing

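All 28 alternatives kept the direction and call of 12 members: Ccng1, Sesn1, Eda2r, Plk2, Perp, Fas, Tnfrsf10b, Bbc3, Bad, Bik, Bid and Pmaip1. Over 36 members and these alternatives, 969 of 1008 values kept their side of the threshold, 15 lost a call, 23 gained one and 1 turned: Bax, at -0.0946 with GC and length trends removed. With those trends removed 13 members were lower, beside 4464 of all 14412 genes, and the cause was not tested. The median log2 fold change of all genes was then -0.05, beside 0.01 in the main fit. Against a 1.2-fold difference 2079 genes were higher and 1144 lower (22.4% of genes), with 10 members higher and 2 lower. Under that test 2 further p53 targets, 4 p53 regulators, 0 Bcl2 family genes and 1 gene of the caspase, receptor and inhibitor list were lower, and 2 Bcl2 family genes were higher. At an adjusted p below 0.01, 5 further p53 targets, 2 Bcl2 family genes and 3 genes of the last list were lower. Both of these settings are stricter by construction. Without mutant-labelled embryo 2 and wild-type embryo 1, 2 Bcl2 family genes were lower. Leaving out 1 embryo at a time gave 12 to 15 members higher and 6 to 8 lower. Of all genes called in those fits, 50.7% to 52.1% were higher, beside 51.7% in the main fit. Fewer of all genes were called in each direction when any wild-type embryo was left out. No paired analysis was possible because the labels carry no replicate numbers or litters. Low counts limit Fas (4 to 9 counts in wild-type libraries).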
